A study of Mus musculus with 6 samples.

Results

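A set of 10 genes of the IL-6 family and STAT3 pathway were examined in bulk RNA-seq of mouse corneal epithelial cells: the suppressors of cytokine signaling *Socs1*, *Socs2* and *Socs3*, the transcription factor *Stat3*, the ligands *Il6* and *Lif*, and the receptor subunits *Il6ra*, *Il6st*, *Lifr* and *Osmr*. They were chosen by gene symbol from the 17784 genes listed, with the read counts and TPM values of the same comparison already known. Their differences between the groups are therefore a description, and the adjusted p values given for them come from the fit over all genes and are not independent evidence. All 10 genes were found, and 9 passed the filter for low counts. *Il6* did not.

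The 6 samples comprised 3 of genotype *Prrx1-CreERT;Ptch1f/f*, here Ptch1Prrx1, and 3 control samples, given as *Ptch1f/f* in the study. Mice of both groups were 10 weeks old and received 3 doses of tamoxifen, with 2 months of treatment per the labels, and the epithelium was detached from the cornea with EDTA. Prrx1-CreERT is a knock-in, tamoxifen-inducible recombinase active in keratocytes and other mesenchymal cells of the eye. The deletion of *Ptch1*, the receptor that restrains Hedgehog signaling, was thus directed at cells beneath the epithelium and not at the cells that were measured. Whether an RNA sample pooled the corneas of several mice is not given in the sources used here.

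Cytokines of the IL-6 family bind specific receptor chains that pair with the shared subunit gp130, encoded by *Il6st*. The bound receptors activate Janus kinases, which phosphorylate STAT3, and phosphorylated STAT3 enters the nucleus and switches on target genes. *Socs3* is one of these targets, and its protein binds gp130 and the kinases and ends the signal, so the pathway carries its own brake. In the cornea, IL-6 is known as a cytokine of wounded and inflamed tissue. RNA-seq measures the transcripts of these genes and neither secreted cytokine nor phosphorylated STAT3.

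The totals ranged from 20296741 to 20625813 expected counts per sample. The labelled cell type was checked with 10 corneal epithelial markers. Their summed level was 106880 to 115166 TPM in control and 95504 to 117402 TPM in Ptch1Prrx1 samples. *Krt12*, *Aldh3a1* and *Krt5* were the most abundant of them, and 2 of the 10 passed the adjusted p, both higher in Ptch1Prrx1 samples. *Krt14* had a log2 fold change of 2.81 (edgeR, adjusted p = 0.00769) and *Clu* one of 1.00 (edgeR, adjusted p = 0.00376). *Pax6* (-0.22, edgeR adjusted p = 0.112) and *Tkt* (-0.31, edgeR adjusted p = 0.180) did not pass but were lower without overlap. *Klf5* (0.07) was higher without overlap and did not pass either. *Krt12*, *Aldh3a1* and *Krt5* had log2 fold changes of -0.10, -0.16 and 0.04 with overlapping groups. *Ptch1* had 517 to 682 normalised counts in control and 390 to 471 in Ptch1Prrx1 samples, with no overlap. *Ptch1* thus fell in the measured epithelium, with a log2 fold change of -0.51 (edgeR, adjusted p = 0.0401), and the reason was not tested. On the first principal component Ptch1Prrx1 replicate 1 lay at 51.7, apart from replicates 2 and 3 at 18.3 and 19.1, and it held the highest value of its group for 82.2% of the upregulated genes. Control replicate 3 had the highest summed level of 9 stromal markers, 39.8 TPM, against 6.93 to 10.6 TPM in the other 5 samples.

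*Socs3* was the only one of the 10 genes called upregulated, and 0 were called downregulated. Calls required a fold change of at least 2 and an adjusted p (edgeR quasi-likelihood test, Benjamini-Hochberg) no higher than 0.05, and over the 12999 tested genes 2.34% were called up and 0.892% down. By the adjusted p alone, 3 of the 9 tested genes rose (*Socs3*, *Socs1* and *Stat3*) and 1 fell (*Lifr*), where 7.61% of all tested genes rose and 6.41% fell. The groups did not overlap for 6 of the 9 genes, 5 of them higher and 1 lower in Ptch1Prrx1 samples, against 19.7% higher and 20.3% lower among all tested genes. The median log2 fold change of the 9 genes was 0.37, and that of all tested genes was -0.01. Without control replicate 2 only *Socs3* kept an adjusted p of at most 0.05, and the number was 2 without control replicate 3. In bulk RNA, more cells with a transcript and more transcript per cell cannot be told apart.

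*Socs3* (gene 12702), the feedback inhibitor of gp130 receptors, had 31.8, 22.6 and 12.6 normalised counts in control replicates 1, 2 and 3, and 571, 329 and 465 in Ptch1Prrx1 replicates 1, 2 and 3. These are counts scaled to a common library size. The lowest Ptch1Prrx1 sample was more than 10 times the highest control sample, and no single sample carried the difference. The group means were 22.3 ± 9.59 (SD, n = 3) and 455 ± 121 (SD, n = 3). The log2 fold change was 4.34 with an SE (standard error) of 0.32 (edgeR, adjusted p = 0.00263), a 20.3-fold increase. It was the 17th highest among the log2 fold changes of the 12999 genes tested. Leaving out any 1 sample gave log2 fold changes from 4.06 to 4.68.

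The start region of *Socs3* is shown because it is the gene with the largest difference and a textbook STAT3 target. The RefSeq sequence of 300 bases, from 250 before to 50 after the start, lies at chr11:117969317-117969616 on the minus strand of GRCm38.p6, and the capitals mark a match to the STAT motif TTCNNNGAA.

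*Socs3*: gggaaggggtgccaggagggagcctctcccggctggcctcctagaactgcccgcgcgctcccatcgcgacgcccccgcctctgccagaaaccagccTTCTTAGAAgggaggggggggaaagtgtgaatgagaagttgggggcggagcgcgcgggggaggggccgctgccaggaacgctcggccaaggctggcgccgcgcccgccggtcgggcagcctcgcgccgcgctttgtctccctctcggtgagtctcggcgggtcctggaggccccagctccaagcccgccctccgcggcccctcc

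The match TTCTTAGAA begins at position -154 from the start, and the motif reads the same on both strands. Of 32851 promoters of this length in the table, 8.3% held the motif. Among the 10 promoters listed for 9 of the 10 genes, with none for *Socs2*, only that of *Socs3* held it. The AP-1 motif TGANTCA, also the same on both strands, lay in the promoters of *Il6*, *Lif* and *Osmr* and in 7.81% of all promoters. A match is a stretch of letters and says nothing here about binding.

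**Figure D1:**
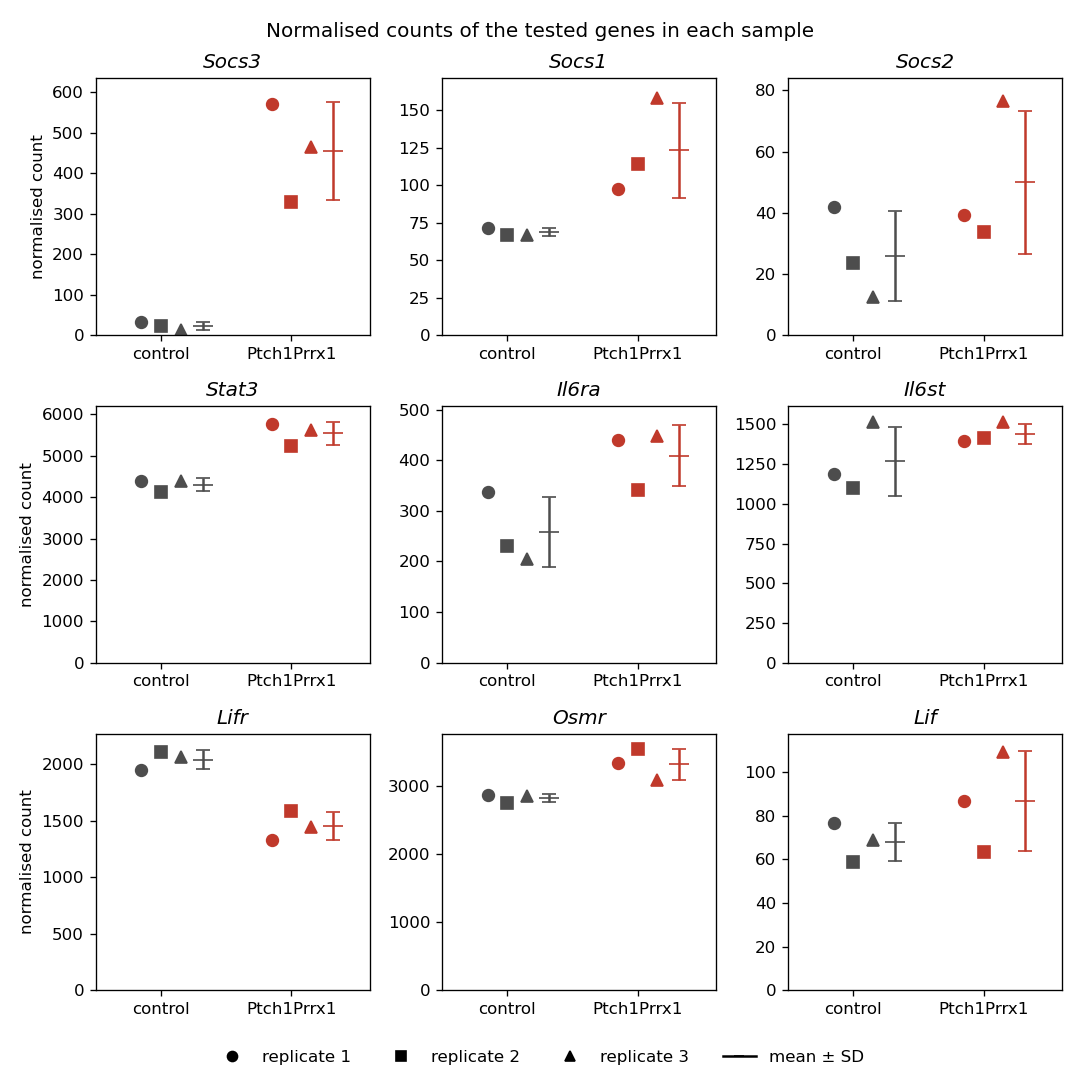
Normalised counts (vertical axes, from 0, a separate scale for each gene) of the 9 tested genes in 3 control and 3 Ptch1Prrx1 samples. Symbols are replicates, and the bar beside them is the mean ± SD. *Socs3* lies at 12.6 to 31.8 in control and 329 to 571 in Ptch1Prrx1 samples, *Lifr* is the only gene with all Ptch1Prrx1 samples below all control samples, and *Socs2*, *Il6st* and *Lif* overlap.

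Of the other SOCS genes, *Socs1* rose by less than 2-fold and *Socs2* did not pass the test. *Socs1* (gene 12703), which encodes an inhibitor of Janus kinases best known from interferon signaling, had 71.5, 66.9 and 67.0 normalised counts in control replicates 1, 2 and 3. It had 97.2, 114 and 158 in Ptch1Prrx1 replicates 1, 2 and 3, so that every Ptch1Prrx1 sample was above every control sample and replicate 3 was the highest. The log2 fold change was 0.85 with an SE of 0.21 (edgeR, adjusted p = 0.0384). This call by adjusted p was not stable, since 8 of 15 alternatives gave an adjusted p above 0.05, among them 5 of the 6 fits with 1 sample left out.

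*Socs2* (gene 216233), a regulator of growth hormone signaling, had 41.7, 23.6 and 12.6 normalised counts in the control samples and 39.3, 33.9 and 76.7 in the Ptch1Prrx1 samples. The groups overlapped, with control replicate 1 above Ptch1Prrx1 replicates 1 and 2. *Socs2* had a log2 fold change of 0.94 with an SE of 0.48, and the adjusted p from edgeR was 0.212.

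The place of *Socs3* among the SOCS genes differed between the groups. TPM, which RSEM scales for gene length, allows levels to be compared between genes. The TPM of *Socs1* to *Socs7* and *Cish* summed to 86.9 to 90.3 in control and 106 to 129 in Ptch1Prrx1 samples. *Socs3* made up 1.38%, 0.990% and 0.565% of this sum in control replicates 1, 2 and 3, and 17.6%, 11.9% and 14.4% in Ptch1Prrx1 replicates 1, 2 and 3. The ratio of *Socs3* to *Socs1* TPM was 0.0821 to 0.197 in control samples and 1.26 to 2.59 in Ptch1Prrx1 samples, so *Socs1* was the higher of both genes in every control sample and *Socs3* in every Ptch1Prrx1 sample.

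Of the other SOCS genes and *Cish*, which were listed as pathway genes and are not among the 10, *Cish* rose and 4 of 5 did not pass the test. *Cish*, an inhibitor best known as a STAT5 target, had 603 to 649 normalised counts in control and 720 to 920 in Ptch1Prrx1 samples (log2 fold change 0.39, with 0.0421 as the edgeR adjusted p). *Socs6* had a log2 fold change of 0.32 with groups that did not overlap and an adjusted p of 0.0872. Log2 fold changes of *Socs4*, *Socs5* and *Socs7* were 0.03, 0.06 and -0.16.

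*Stat3* (gene 20848), the transcription factor that the receptors activate, had 4397, 4116 and 4383 normalised counts in control replicates 1, 2 and 3, and 5776, 5232 and 5622 in Ptch1Prrx1 replicates 1, 2 and 3. The samples of each group lay close together and the groups did not overlap. *Stat3* rose by 28.9%, a log2 fold change of 0.37 with an SE of 0.07 (edgeR, adjusted p = 0.0185). The adjusted p was 0.0935 without control replicate 2 and 0.0512 without control replicate 3, and at most 0.05 under the other 13 alternatives.

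Of the other STAT genes, 0 of 5 tested passed the test. *Stat2*, a STAT of interferon signaling, varied more within the groups than *Stat3* did. It had 1568, 1961 and 2576 normalised counts in control replicates 1, 2 and 3, and 951, 2185 and 2793 in Ptch1Prrx1 replicates 1, 2 and 3. The groups overlapped, with both the lowest and the highest of the 6 values in Ptch1Prrx1 samples, and the log2 fold change was -0.04. *Stat5a*, *Stat5b* and *Stat6* had log2 fold changes of -0.07, -0.23 and -0.04, each with overlapping groups. *Stat4* had at most 1 count per sample.

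The Janus kinases, which carry the signal from the receptors to STAT3, did not pass the test, 0 of 4. *Jak1* had a log2 fold change of 0.02, *Jak2* of 0.08 and *Tyk2* of -0.03. *Jak3* had one of 0.61 (adjusted p = 0.119 from edgeR), with 1613 and 1126 normalised counts in Ptch1Prrx1 replicates 1 and 2 and 769 in replicate 3, which lay inside the control range of 726 to 808.

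*Il6* (gene 16193), the ligand that names the family, was not detectable at this depth. It had 0 counts in all 3 control samples and 0, 1 and 0 counts in Ptch1Prrx1 replicates 1, 2 and 3. A count of 0 allows up to 3 counts, which corresponded to 0.145 to 0.148 CPM (counts scaled to the library total) in these libraries and covers counting error only. No fold change is given.

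*Lif* (gene 16878), which signals through *Lifr* and gp130, was expressed at a low level and did not pass the test. It had 76.5, 59.0 and 68.9 normalised counts in control replicates 1, 2 and 3, and 86.8, 63.6 and 110 in Ptch1Prrx1 replicates 1, 2 and 3. The groups overlapped, and the log2 fold change of 0.35 had an SE of 0.23 (adjusted p = 0.337 from edgeR).

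Among the 9 other ligand genes listed, 5 were tested and 1 was called upregulated. *Clcf1*, whose protein signals through gp130 and *Lifr* after binding the ciliary neurotrophic factor receptor, had 246, 198 and 170 normalised counts in control replicates 1, 2 and 3. It had 553, 358 and 404 in Ptch1Prrx1 replicates 1, 2 and 3, with no overlap. The log2 fold change of *Clcf1* was 1.10 with an SE of 0.20 (edgeR, adjusted p = 0.0175). *Cntfr*, the chain of that receptor which binds CLCF1, had 9.83 to 12.6 normalised counts in control and 12.3 to 17.9 in Ptch1Prrx1 samples. Log2 fold changes of *Ctf1*, *Il11* and *Cntf* were -0.62, 0.30 and 0.02, with adjusted p of 0.0680, 0.501 and 0.935. *Osm*, the ligand of *Osmr*, had 1 count in Ptch1Prrx1 replicate 1 and 0 in the other 5 samples.

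Among the receptor genes of the 10, *Lifr* fell, and the other 3 did not pass the test. *Il11ra1*, a receptor gene outside the 10, did not pass but was lower without overlap. Its normalised counts were 175 to 204 in control and 160 to 172 in Ptch1Prrx1 samples (log2 fold change -0.24, edgeR adjusted p = 0.188). *Lifr* (gene 16880), the receptor chain for LIF, CLCF1 and related ligands, had 1947, 2109 and 2064 normalised counts in control replicates 1, 2 and 3. It had 1331, 1585 and 1448 in Ptch1Prrx1 replicates 1, 2 and 3, all below the control samples. The log2 fold change was -0.49 with an SE of 0.08 (edgeR, adjusted p = 0.0139), a change of -28.7%. The adjusted p was 0.0731 without control replicate 2 and at most 0.05 under the other 14 alternatives.

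*Osmr* (gene 18414), the chain that pairs with gp130 for oncostatin M, had 2868, 2755 and 2852 normalised counts in control replicates 1, 2 and 3, and 3336, 3551 and 3093 in Ptch1Prrx1 replicates 1, 2 and 3. The groups did not overlap, but the difference was small, with a log2 fold change of 0.24 (SE 0.07), and the adjusted p of 0.0591 from edgeR missed the threshold. The balance of *Lifr* and *Osmr* within each sample differed between the groups without overlap. The ratio of *Lifr* to *Osmr* TPM was 0.396, 0.430 and 0.407 in control replicates 1, 2 and 3, and 0.248, 0.268 and 0.298 in Ptch1Prrx1 replicates 1, 2 and 3.

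*Il6ra* (gene 16194), the chain specific for IL-6, had 337, 231 and 206 normalised counts in control replicates 1, 2 and 3, and 439, 341 and 448 in Ptch1Prrx1 replicates 1, 2 and 3. The lowest Ptch1Prrx1 sample and the highest control sample lay close together. The log2 fold change of 0.67 (SE 0.20) had an adjusted p of 0.0610 from edgeR. It passed under 3 of 15 alternatives, DESeq2 (0.0153), a replicate block (0.0442) and the fit without control replicate 1 (0.0351).

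*Il6st* (gene 16195), which encodes the shared subunit gp130, had 1184, 1102 and 1515 normalised counts in control replicates 1, 2 and 3, and 1397, 1414 and 1512 in Ptch1Prrx1 replicates 1, 2 and 3. The groups overlapped because control replicate 3 was the highest of the 6 samples. *Il6st* had a log2 fold change of 0.19 with an SE of 0.12 (edgeR, adjusted p = 0.315). The summed TPM of the 4 receptor genes was 116 to 127 in control and 123 to 135 in Ptch1Prrx1 samples.

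**Figure D2:**
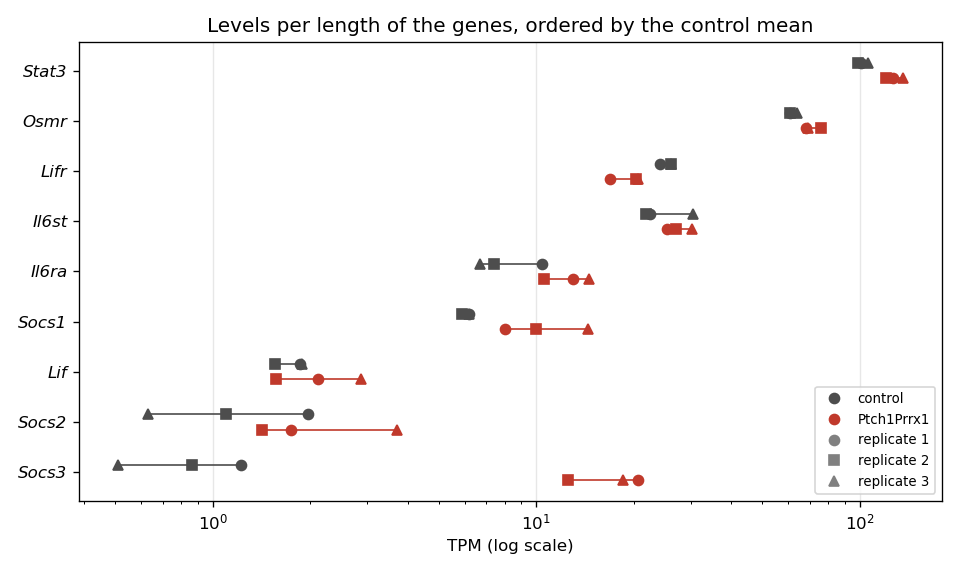
TPM (horizontal axis, log scale) of the 9 tested genes in control samples (grey) and Ptch1Prrx1 samples (red), ordered from top to bottom by the control mean. Symbols are replicates and lines span the lowest to the highest sample, and *Socs3* lies at 0.51 to 1.22 TPM in control and 12.6 to 20.7 TPM in Ptch1Prrx1 samples. *Il6* is not drawn because it was at 0 in 5 of the 6 samples.

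By TPM, *Stat3* was the most abundant of the 10 transcripts in both groups, with a mean of 102 TPM in control and 128 TPM in Ptch1Prrx1 samples, followed by *Osmr* with 61.9 and 71.1 TPM. In control samples *Lifr* (25.4 TPM) and *Il6st* (24.9 TPM) came next, with ranges that overlapped. *Il6ra* (8.17 TPM) and *Socs1* (6.09 TPM) followed, and *Lif* (1.77 TPM), *Socs2* (1.23 TPM) and *Socs3* (0.863 TPM) were lowest, each overlapping its neighbour in the order. In Ptch1Prrx1 samples *Socs3*, with 17.3 ± 4.21 TPM (SD, n = 3), stood between *Lifr* (19.3 TPM) and *Il6ra* (12.7 TPM), and its range overlapped with both. *Il6st* lay above *Lifr* in every Ptch1Prrx1 sample, with a ratio of *Lifr* to *Il6st* TPM of 0.665 to 0.755 against at least 0.857 in control samples. *Il6* was last in both groups.

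Genes known to be regulated by STAT3 other than the 10 were examined as a list of 25, of which 23 were in the table and 19 were tested. Of these 19, 8 rose and 1 fell by the adjusted p alone, a share of 47.4% against 14.0% of all tested genes in both directions, and 2 were called upregulated. Their median log2 fold change was 0.55, with 17 above 0. Each of these genes also answers to other pathways, and the list was written with earlier results of these data known.

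*Bcl3*, an IkB family regulator of NF-kB, had 499, 403 and 525 normalised counts in control replicates 1, 2 and 3, and 1727, 1422 and 1494 in Ptch1Prrx1 replicates 1, 2 and 3. The lowest Ptch1Prrx1 sample was well above the highest control sample. *Bcl3* rose with a log2 fold change of 1.70 with an SE of 0.12 (edgeR, adjusted p = 0.00263). *Tnfrsf12a*, the receptor for the cytokine TWEAK, had 378 to 519 normalised counts in control and 930 to 1534 in Ptch1Prrx1 samples (log2 fold change 1.39, with 0.0113 as the edgeR adjusted p). The other genes that rose were *Myc* (log2 fold change 0.91), *Junb* (0.73), *Cebpb* (0.65), *Pim1* (0.55), *Mcl1* (0.48) and *Hif1a* (0.42). These encode transcription factors, a kinase and an inhibitor of cell death. *Ccnd1*, the G1 cyclin D1, fell, with a log2 fold change of -0.56 (adjusted p = 0.0267 from edgeR). *Icam1* and *Timp1* had the highest fitted values, 1.97 and 1.86, but low and variable counts and adjusted p of 0.0829 and 0.0907. *Vegfa* (0.93, adjusted p = 0.0501) just missed the threshold.

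Of the 8 tested phosphatases and PIAS proteins, 1 fell and 0 rose by the adjusted p alone. *Ptpn6*, which encodes the phosphatase SHP-1, had 708 to 808 normalised counts in control and 435 to 609 in Ptch1Prrx1 samples (log2 fold change -0.51, with 0.0464 as the edgeR adjusted p). *Pias3*, the inhibitor of STAT3, had a log2 fold change of -0.11 with overlapping groups, and *Ptpn11*, which encodes SHP-2, one of 0.05.

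Over all pathway lists without the 10 genes, 48 of 62 genes were tested. Of these, 10 rose and 2 fell by the adjusted p alone, a share of 25.0% against 14.0% of all tested genes, and 3 were called upregulated (*Clcf1*, *Bcl3* and *Tnfrsf12a*). Their median log2 fold change was 0.15, against -0.01 for all tested genes. The number past the adjusted p was 2 without control replicate 2 and 7 without control replicate 3. Of the 12 with all 6 samples, 9 came from the list of STAT3-regulated genes, which was written with earlier results known. The ligands, the SOCS genes with *Cish*, and the phosphatases with the PIAS proteins held 1 each. The receptors, Janus kinases and STAT genes held 0, so the pooled share does not describe the pathway as a whole.

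**Figure D3:**
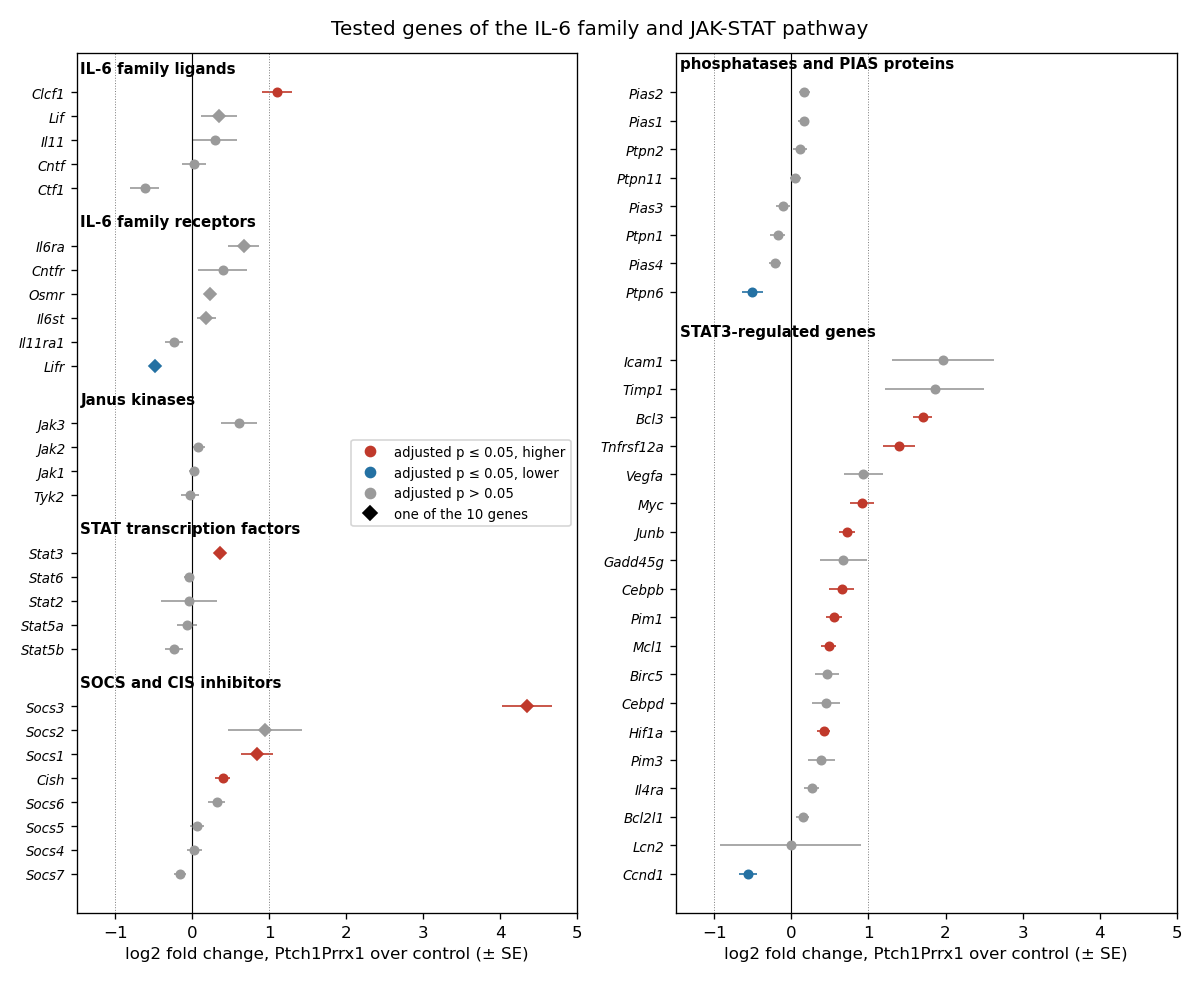
Log2 fold change of Ptch1Prrx1 over control with its standard error (horizontal axes) for tested genes of each pathway list, where diamonds are the 10 genes chosen and circles the other genes of the lists. Red and blue mark an adjusted p of at most 0.05, dotted lines a 2-fold change. *Socs3*, at 4.34, lies apart from every other gene drawn, the next being *Icam1* at 1.97 and *Timp1* at 1.86, and the Janus kinases and the STAT genes other than *Stat3* are grey.

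Marker lists of other kinds were read from the same samples, and some differed between the groups while others overlapped. One list held 20 immediate early and heat shock genes, which respond quickly to stimuli and to tissue handling. Its summed level was 2241 to 2602 TPM in control and 4357 to 4984 TPM in Ptch1Prrx1 samples, and 15 of 20 rose while 0 fell. The heat shock genes *Hspa1a* and *Hspa1b* had 375 and 915 TPM in control replicate 1, with log2 fold changes of 0.06 and 0.41. The part of this list in the differences of *Socs3* and the other genes was not tested. In Ptch1Prrx1 replicates 1, 2 and 3 the list summed to 4984, 4828 and 4357 TPM. The 12 immune markers summed to 135 to 176 TPM in control and 162 to 225 TPM in Ptch1Prrx1 samples, which overlapped, and 0 of the 6 tested passed the test. *Ptprc*, which encodes the leukocyte antigen CD45, had at most 8.74 normalised counts in any sample, *Adgre1* at most 2.91 and *Cd3e* at most 2.07. Of the 6 tested immune markers, 3 were higher in every Ptch1Prrx1 sample than in the control samples. Among all tested genes 19.7% were higher and 20.3% lower without overlap. *Itgam*, with 67.0 to 101 TPM in control and 99.5 to 129 TPM in Ptch1Prrx1 samples, had 3024 to 4295 normalised counts in control and 4468 to 6056 in Ptch1Prrx1 samples (adjusted p = 0.0759 from edgeR), *Cd68* had 507 to 553 and 566 to 798 (0.213), and *Cd52* had 10.7 to 17.7 and 24.9 to 54.8 (0.0584). *Ly6g* was lower without overlap, with 49.2 to 55.6 and 22.6 to 48.8. The part of these markers in the differences of the 10 genes was not tested. The blood vessel markers in the table were near 0, with a sum of 0.09 to 0.38 TPM in control and 0.74 to 0.80 TPM in Ptch1Prrx1 samples.

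Of the stromal markers, 0 of 4 tested passed the test, and *Kera*, which encodes the keratocyte protein keratocan, had at most 0.994 normalised counts. The summed level of the 5 conjunctival markers was higher in every Ptch1Prrx1 sample (3671 to 6276 TPM) than in the control samples (2403 to 3436 TPM). By the adjusted p 1 of 5 rose, *Muc4*. Taken singly, *Krt4*, *Krt19* and *Krt7* overlapped between the groups, and *Krt13* and *Muc4* did not. The summed level of the 6 limbal markers overlapped (1187 to 2307 TPM and 1815 to 3832 TPM), and 0 of 5 tested passed the test. Without control replicate 3, which had the highest stromal sum, the log2 fold change of *Socs3* was 4.06, and without Ptch1Prrx1 replicate 1, which stood apart, it was 4.15.

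The genes whose pattern over the 6 samples was most like that of *Socs3* were sought among 10322 tested genes with a mean of at least 100 normalised counts, by the Pearson correlation of log2 CPM. The highest values were those of *Psca* (0.997), *Lamb3* (0.997), *Sntb2* (0.996), *Phlpp1* (0.994) and *Sparc* (0.994), and the lowest those of *Postn* (-0.994), *Thap2* (-0.992) and *Pclo* (-0.991). The samples fall into 2 groups, so a gene that differs between the groups has a high value whatever the size of its change. *Psca* ran from 39643 to 43879 normalised counts in control and from 55415 to 60116 in Ptch1Prrx1 samples, and *Lamb3* from 1571 to 1807 and from 3023 to 3582. Among the 10 genes, *Stat3* (0.964) was the most similar to *Socs3* and *Lifr* (-0.975) the most opposed.

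**Figure D4:**
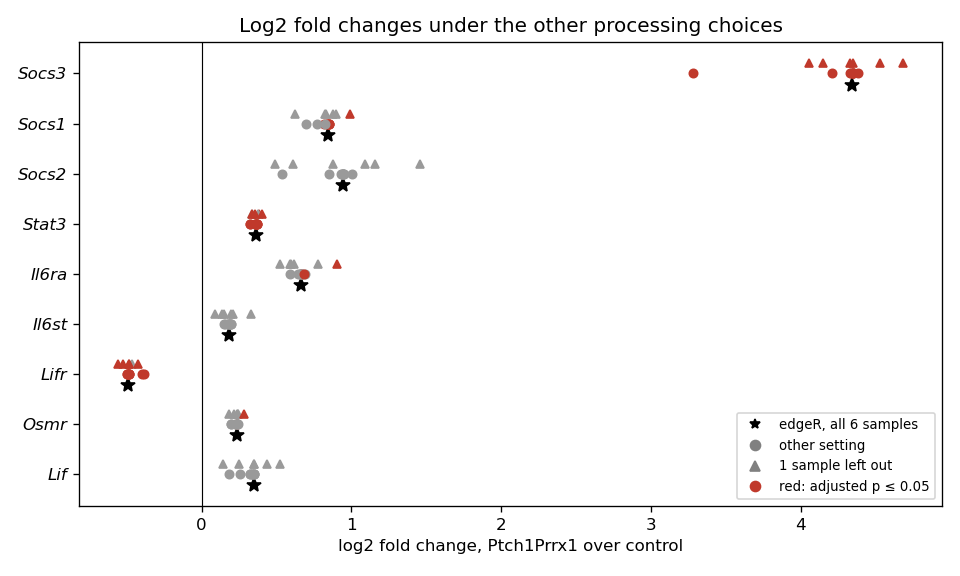
Log2 fold change of Ptch1Prrx1 over control (horizontal axis) of the 9 tested genes in the edgeR fit of all 6 samples (star), under other tests, filters and scalings (circles) and with 1 sample left out (triangles). Red marks an adjusted p of at most 0.05. *Socs3* stays between 3.28 and 4.68 and *Lifr* between -0.56 and -0.38, and all 9 genes keep their direction.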

How the data were processed

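Epithelial RNA of 3 control and 3 Ptch1Prrx1 samples was analysed. The authors aligned reads with Bowtie2 2.2.5 and quantified genes with RSEM 1.2.12, and the submitters' processing notes name the build mm9. The deposited expected counts are RSEM's unscaled estimates per gene, of which 39.4% of the values above 0 were not whole. The deposited TPM values are scaled by RSEM for gene length and depth, and the deposited FPKM values were not used. Groups and replicate numbers came from the sample titles.

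Expected counts were rounded and filtered with filterByExpr, leaving 12999 of 17784 genes, and tested with edgeR 4.0.16 (quasi-likelihood, TMM factors) in R 4.3.3. Standard errors are the absolute log2 fold change over the square root of the F statistic. Normalised counts are counts over TMM-scaled library sizes, times their mean. Samples of a group differed by more than sampling noise (chi-square per degree of freedom 10.5 to 40.0). An exact test of 3 against 3 cannot go below 0.10. The labels do not say which samples shared an animal or a day.

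The 10 genes and all lists were chosen with earlier results of these data known. All 10 genes are named, with every pathway gene called and the 5 most and 3 least similar to *Socs3*. Some pathway genes that entered the counts are not reported here by name. The alternatives were RLE and upper-quartile factors, DESeq2 1.42.0, limma-voom (limma 3.58.1), no filter beyond 1 count, at least 10 counts in every sample, limma on log2(TPM + 1) and log2(TPM + 0.1) (mean TPM no lower than 1), a replicate block, and each sample left out. The procedure was tested on simulated data.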

Additional observations from a re-analysis of the deposited data

How the results depend on the processing

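In all 15 alternatives *Socs3* was the only one of the 10 genes called, and all 9 tested genes kept their direction. Of 135 values of single genes, 119 kept their side of the threshold, 11 lost it and 5 gained it. The genes past the adjusted p numbered 4, with 6 under DESeq2 and 1 to 4 when 1 sample was left out. For the other pathway genes the number was 12, with 2 to 14 when 1 sample was left out. Over all genes 420 were called, with 234 under limma on log2(TPM + 1), 311 under limma on log2(TPM + 0.1), and 59 to 430 when 1 sample was left out, lowest without control replicate 2. By the adjusted p alone 1822 genes passed, with 93 to 1325 when 1 sample was left out. Leaving out a sample gives a smaller fit. The TPM fits changed the test, the unit and the genes tested (11976) together, and the cause of their lower counts was not tested, nor why control replicate 2 mattered most. The deviations of same-numbered samples from their group means had r from -0.01 to 0.11, and those of differently numbered samples from -0.18 to 0.18. With 3 samples per group this cannot settle whether the numbers pair the samples. With a replicate block, 390 genes were called, *Socs3* the only one of the 10. By the adjusted p alone the block gave 1892 genes, 11 other pathway genes and 4 of the 10 genes, with *Il6ra* (0.0442) among them and without *Socs1* (0.0507). At this depth *Il6*, *Osm* and *Stat4* were below what can be compared.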

Other observations

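Some pathway genes left out of the test by the filter had counts in 1 or more samples. *S100a8* and *S100a9*, which encode the subunits of calprotectin and are known as epithelial stress and neutrophil genes, had 0 and at most 3.93 normalised counts in the control samples. In Ptch1Prrx1 replicates 1, 2 and 3, *S100a8* had 275, 1.03 and 2.99, and *S100a9* had 1798, 7.18 and 30.9. *Ebi3*, a subunit of IL-27, had 0.994 to 2.91 normalised counts in control and 5.13 to 10.3 in Ptch1Prrx1 samples. *Il31* had 3.10 in Ptch1Prrx1 replicate 1 and 0 in the other 5 samples. These values were not tested.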
